A study of Mus musculus with 14 samples.

Results

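The genes described here license origins of DNA replication, start and carry the replication fork, and signal when forks stall. They are a list of 38 symbols set by function, with no measured value in the rule but with earlier results of these data known, and all were found in the FPKM tables among 24345 genes and in the RNA immunoprecipitation (RIP) count tables among 24394 genes. Before replication starts, the origin recognition complex, Cdc6 and Cdt1 load the Mcm2-7 helicase onto DNA, and Mcm10, Cdc45 and the GINS complex then turn it into a working helicase. When a fork stalls, the bared single strand is coated by RPA, which brings in the kinase Atr with its partner Atrip, and Atr, switched on by Topbp1 or Etaa1, activates the kinase Chek1 with the help of Clspn. Embryonic stem cells divide fast with a short gap before S phase and are known for abundant licensing factors.

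RNA was sequenced in mouse cells in 7 groups of 2 libraries each. Dppa5a_KD is RNA of untreated embryonic stem cells of a home made line with the genotype Dppa5a knockdown, and KD_control is RNA of the same kind of cells labelled wild type and untreated, with no construct named for either. The mESC group is total RNA of wild type, untreated embryonic stem cells of a home made line, and MEF is total RNA of wild type, untreated primary embryonic fibroblasts. In the RIP groups, RNA of stem cells with the genotype 3Flag-Dppa5a overexpresson was pulled down with anti-Flag from HU-treated cells (HU_Flag_RIP), with anti-Flag from untreated cells (Flag_RIP), or with IgG from untreated cells (IgG_RIP). The labels do not spell out HU, and they give no IgG library from HU-treated cells. All stem cells were kept on inactivated fibroblasts and moved to gelatin before harvest, per the labels' protocols. Dppa5a encodes an RNA-binding protein of pluripotent cells. The study asked about splicing across the cell types and the knockdown and about the RNAs bound by Dppa5a, while the tables hold 1 value per gene. The labels do not tell whether the 2 libraries of a group are separate cultures; p-values therefore reflect only how these libraries vary, which may be technical.

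Levels are FPKM, fragments scaled by transcript length and by library size, so they can be compared between genes. Their sums lay between 447657 and 585678 per library, and the deposited 95% bounds of the 38 genes were from 1.27% to 12.9% of the value on either side, which covers counting error only. The RIP libraries held 3472020 and 3703236 counts in IgG_RIP, less than the 7378729 to 13033886 of the 4 Flag libraries. Without the RNAs Rn45s, Rmrp, Rpph1 and Lars2, IgG_RIP held 702016 and 841305 counts, and the 4 Flag libraries held 816592 to 1492111. Only 3393 to 6568 counts per library fell on the 38 genes. Summed levels of 6 stem cell markers were 1837 and 2503 FPKM in mESC, against 0.961 and 0.568 FPKM in MEF, and in KD_control and Dppa5a_KD they lay between 2657 and 3433 FPKM. Of 8 fibroblast markers the sums were 399.9 and 431.7 FPKM in mESC, against 10460 and 9234 FPKM in MEF, and Col3a1 was listed at 0 in both mESC libraries. Dppa5a itself was at 101 and 358 FPKM in Dppa5a_KD, against 5126 and 5417 FPKM in KD_control (log2 fold change -4.78 ± 0.63, limma adjusted p = 0.00878). In mESC it was at 1485 and 1818 FPKM, against 0 and 0.0871 FPKM in MEF. The 2 KD_control libraries differed little, by a median of 0.0345 on the log2 scale over the 38 genes, where the mESC pair differed by 0.2996, the MEF pair by 0.1955 and the Dppa5a_KD pair by 0.205. They still differed by more than the deposited bounds allow (chi-square per degree of freedom 2.55 over 11974 genes), and were kept as 2 libraries.

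Promoter sequences were looked at because most of the licensing genes moved together between the cell types, and E2F factors are known to drive such genes at the start of S phase. RefSeq promoters (GRCm38.p6, from 250 bases before to 50 bases after the gene start) were on hand for 31 of the 38 genes. The search was for TTTCCCGC, TTTCGCGC, TTTGCCGC and TTTGGCGC on both strands, in capitals below, and overlapping matches were each counted. The windows shown are those of Orc1 and Cdt1, which load the helicase, and of the helicase subunits with an entry, in each case the strand of the gene, 5′ to 3′.
Orc1, chr4:108579204-108579503, plus strand: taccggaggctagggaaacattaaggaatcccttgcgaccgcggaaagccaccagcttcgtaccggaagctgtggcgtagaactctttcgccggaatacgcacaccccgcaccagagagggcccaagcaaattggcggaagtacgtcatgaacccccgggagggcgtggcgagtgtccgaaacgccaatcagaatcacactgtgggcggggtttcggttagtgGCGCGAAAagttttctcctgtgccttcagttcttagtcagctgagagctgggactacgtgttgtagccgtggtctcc
Cdt1, chr8:122567765-122568064, plus strand: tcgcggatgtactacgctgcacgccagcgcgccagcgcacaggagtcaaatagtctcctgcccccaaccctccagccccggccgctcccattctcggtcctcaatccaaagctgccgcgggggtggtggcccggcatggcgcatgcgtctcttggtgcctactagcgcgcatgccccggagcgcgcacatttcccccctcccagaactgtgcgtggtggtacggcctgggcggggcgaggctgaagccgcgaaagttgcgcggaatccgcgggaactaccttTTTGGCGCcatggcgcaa
Mcm2, chr6:88898731-88899030, minus strand: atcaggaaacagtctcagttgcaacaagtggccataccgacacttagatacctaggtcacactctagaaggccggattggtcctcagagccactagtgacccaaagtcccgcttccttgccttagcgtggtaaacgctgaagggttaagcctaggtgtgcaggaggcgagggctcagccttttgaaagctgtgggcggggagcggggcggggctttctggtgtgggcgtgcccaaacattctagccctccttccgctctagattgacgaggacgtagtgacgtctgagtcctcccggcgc
Mcm3, chr1:20820263-20820562, minus strand: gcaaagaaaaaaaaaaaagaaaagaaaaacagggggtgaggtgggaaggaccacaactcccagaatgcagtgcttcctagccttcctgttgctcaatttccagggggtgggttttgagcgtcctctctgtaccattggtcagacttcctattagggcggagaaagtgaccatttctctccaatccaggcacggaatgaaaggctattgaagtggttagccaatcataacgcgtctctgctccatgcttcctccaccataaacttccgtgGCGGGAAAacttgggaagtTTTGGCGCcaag
Mcm5, chr8:75109259-75109558, plus strand: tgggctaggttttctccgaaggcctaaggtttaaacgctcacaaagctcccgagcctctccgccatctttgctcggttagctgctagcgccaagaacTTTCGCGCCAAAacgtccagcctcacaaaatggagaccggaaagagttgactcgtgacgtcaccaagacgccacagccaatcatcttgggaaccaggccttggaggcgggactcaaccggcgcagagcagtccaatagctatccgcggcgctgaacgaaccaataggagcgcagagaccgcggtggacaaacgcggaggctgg
Mcm6, chr1:128359656-128359955, minus strand: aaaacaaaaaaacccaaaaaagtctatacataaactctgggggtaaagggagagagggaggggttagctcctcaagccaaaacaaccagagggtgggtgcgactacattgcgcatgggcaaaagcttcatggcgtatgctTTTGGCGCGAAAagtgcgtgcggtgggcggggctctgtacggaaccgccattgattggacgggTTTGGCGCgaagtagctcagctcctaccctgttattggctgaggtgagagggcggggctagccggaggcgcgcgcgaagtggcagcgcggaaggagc
Mcm7, chr5:138171834-138172133, minus strand: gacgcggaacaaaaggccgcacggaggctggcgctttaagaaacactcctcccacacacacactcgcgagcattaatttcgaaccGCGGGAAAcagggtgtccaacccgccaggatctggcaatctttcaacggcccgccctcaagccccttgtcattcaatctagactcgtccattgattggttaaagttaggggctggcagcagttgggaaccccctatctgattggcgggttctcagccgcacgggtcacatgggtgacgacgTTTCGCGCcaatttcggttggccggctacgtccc

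In Mcm5 and in Mcm6 a forward and a reverse match overlapped, which gives the longer runs in capitals. Mcm6 held 3 matches, Mcm3, Mcm5 and Mcm7 held 2 each, Orc1 and Cdt1 held 1 each, and the Mcm2 window held none. Another Mcm7 window (chr5:138171217-138171516), not shown, held none. Of the 31 genes 3 had several starts, and a gene was counted if any of its windows held a match. In Mcm7 the first letter of a CCAAT box is also the last letter of the match behind the gene start. A match was found in 11 of the 31 genes (35.5%), against 2.61% of 27025 genes with a promoter in the table and 4.77% of the 9734 of them that were tested in mESC against MEF. The 11 genes were Orc1, Cdc6, Cdt1, Mcm3, Mcm5, Mcm6, Mcm7, Gins3, Topbp1, Clspn and Cdc25a. The share was 9 of 26 (34.6%) among the genes higher in mESC than in MEF and 2 of 5 (40%) among those that did not pass, Topbp1 and Clspn. A CCAAT box (CCAAT, both strands) was in 22 of the 31 (71.0%), against 43.2% of the tested genes, and a GC box (GGGCGG, both strands) in 21 (67.7%), against 70.2% of the tested genes. Mcm10 and Rpa2, also among the genes with the largest difference between the cell types, held 3 CCAAT boxes each and no E2F match. A match is a description of these letters, not a bound site.

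**Figure D1:**
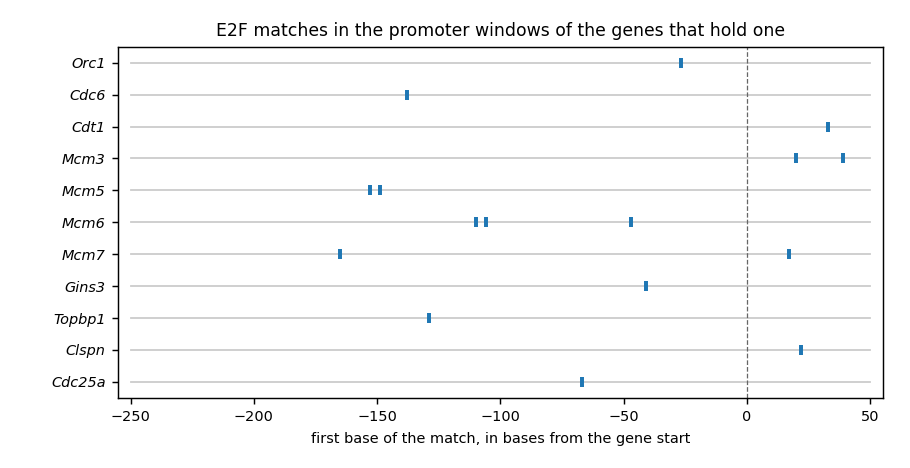
Position of E2F matches in the promoter windows of the 11 genes that hold one; the x axis gives the first base of each match in bases from the gene start (dashed line), and each grey line is a window from 250 bases before to 50 bases after it. Matches lie on both sides of the start, from 165 bases before it (Mcm7) to 39 bases after it (Mcm3).

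In mESC, 31 of the 38 genes were higher than in MEF and 0 were lower, and the median log2 fold change was 1.38 on the log2(FPKM + 1) scale, which understates the change of low genes. Over all 12875 genes tested, 30.6% were called higher and 26.1% lower, 56.7% in all (limma-trend, Benjamini-Hochberg adjusted p under 0.05), and the median was 0.15. The groups did not overlap for 36 of the 38 genes, each time with mESC higher, against 44.2% of all genes in that direction. With median-ratio scaling the median of all genes was 0.01, that of the 38 genes was 1.24, and 28 were called. Under every alternative run 5 genes (Orc1, Mcm2, Mcm5, Mcm10 and Rpa2) were called, while the other 26 lost their call under 1 or more. Most calls were lost with either MEF library left out, among the 38 and among all genes. The median of the 38 was then 1.34 without MEF replicate 1 and 1.37 without MEF replicate 2, against 0.16 and 0.13 of all genes. In bulk RNA, fewer cells in S phase and less RNA per cell cannot be told apart. Of 10 markers of G2 and mitosis 6 were higher in mESC and 0 lower, and their summed level was 1108 and 990 FPKM in mESC, against 512.5 and 541.5 FPKM in MEF; their part in the result was not tested. KD_control, a second set of stem cell libraries set against the same 2 MEF libraries, had 32 of the 38 genes higher and 0 lower, with a median of 1.38, where 80.9% of 13365 genes were called, 48.4% higher and 32.5% lower. The groups did not overlap for 33 of the 38 with KD_control higher and 2 with it lower, against 54.1% and 37.4% of all genes. The median over all genes was 0.29. Median-ratio scaling put it at 0.04 and then called 29 of the 38 higher and 4 lower.

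**Figure D2:**
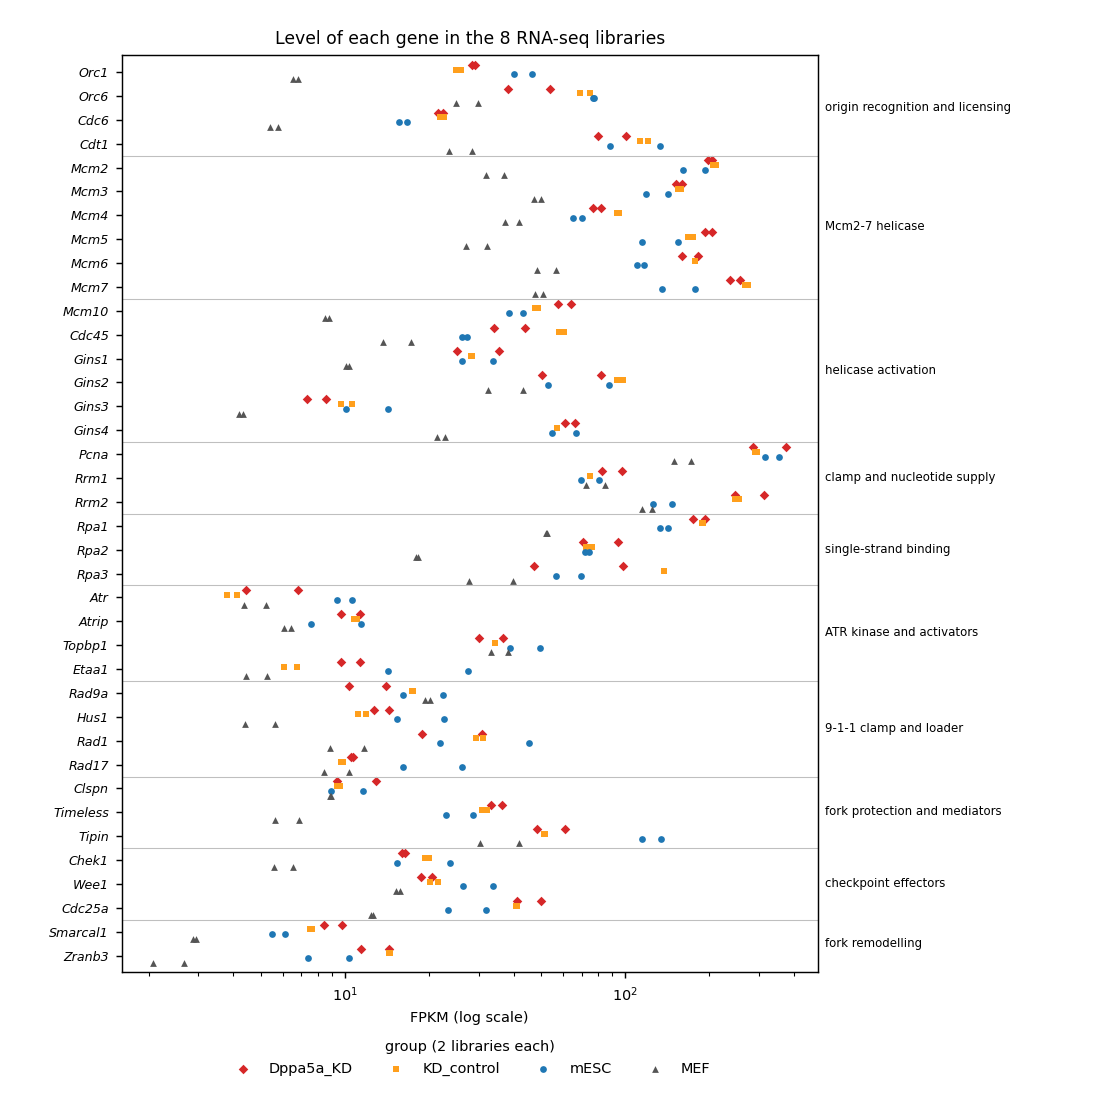
Level of each of the 38 genes in the 8 RNA-seq libraries (x axis, FPKM, log scale), with 1 point per library and genes grouped by role. The MEF triangles lie to the left for most genes, while genes such as Rrm1, Rrm2, Rad9a, Rad17, Atr, Topbp1 and Clspn show MEF among or close to stem cell points.

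All 4 licensing factors tested rose in mESC relative to MEF. Orc1, the largest subunit of the origin recognition complex, was at 46.5 and 40.1 FPKM in mESC, against 6.79 and 6.53 FPKM in MEF (log2 fold change 2.53 ± 0.20 SE, adjusted p = 0.000423), the largest difference among the 38 genes. Orc6, the smallest subunit, was at 77.3 and 76.9 FPKM in mESC, against 24.9 and 29.9 FPKM in MEF (1.47). Both libraries of mESC lay above both of MEF for these genes. Cdc6, the loading ATPase, was at 15.6 and 16.7 FPKM in mESC, against 5.397 and 5.79 FPKM in MEF (1.38). Cdt1, its partner in loading, was at 88.03 and 133 FPKM in mESC, against 28.5 and 23.6 FPKM in MEF (2.02), with the mESC libraries further apart than the MEF ones. In KD_control against MEF the log2 fold changes of Orc1, Orc6, Cdc6 and Cdt1 were 1.79, 1.37, 1.82 and 2.13, and all 4 passed.

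The 6 subunits of the Mcm2-7 helicase, which together form a ring, were all higher in mESC but not by the same amount. Mcm2 was at 160 and 192 FPKM in mESC, against 37.02 and 31.9 FPKM in MEF (2.32 ± 0.23, adjusted p = 0.000822). Mcm5 was at 115 and 155 FPKM in mESC, against 32.3 and 27.01 FPKM in MEF (2.14 ± 0.25, adjusted p = 0.00151). Mcm4 had the smallest difference of the 6, with 64.98 and 70.1 FPKM in mESC, against 37.3 and 41.8 FPKM in MEF (0.76 ± 0.21, adjusted p = 0.0262), and its 2 mESC libraries still lay above both MEF libraries. Mcm3, Mcm6 and Mcm7 lay between, at 1.41, 1.10 and 1.63. The order of the levels within the ring therefore differed between the cell types. In mESC, Mcm2 was the highest and Mcm4 the lowest subunit in both libraries, 2.47 and 2.74 times apart. In MEF, Mcm5 was the lowest in both libraries, and Mcm2 came next above it. In KD_control, Mcm7 led at 274 and 269 FPKM and Mcm4 was again last at 93.7 and 95.3 FPKM. Against MEF, the KD_control log2 fold changes ran from 1.24 (Mcm4) to 2.57 (Mcm2).

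Of the 6 genes that turn the loaded ring into a moving helicase, 5 were higher in mESC. Mcm10, which is needed for that step, was at 38.6 and 43.1 FPKM in mESC, against 8.52 and 8.77 FPKM in MEF (2.12 ± 0.20, adjusted p = 0.000701). Cdc45, which binds the ring together with GINS, was at 27.2 and 26.2 FPKM in mESC, against 13.7 and 17.2 FPKM in MEF (0.76 ± 0.21, adjusted p = 0.0286). The mESC levels of Mcm10 were over 4 times those of MEF, while those of Cdc45 stood closer to MEF. Cdc45 lost its call under scaling to a common sum, median-ratio scaling, the replicate block and each left-out library (adjusted p up to 0.256). Of the 4 GINS subunits, Gins1, Gins3 and Gins4 were higher by 1.46, 1.30 and 1.42, and Gins2 did not pass (0.85 ± 0.32, adjusted p = 0.0698). Gins2 was at 52.96 and 87.6 FPKM in mESC, against 43.3 and 32.3 FPKM in MEF, without overlap but with a wide gap between the mESC libraries. Gins3 was the lowest GINS subunit in all 8 RNA-seq libraries, from 4.18 FPKM (MEF) to 14.2 FPKM (mESC).

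The clamp and the nucleotide supply split. Pcna, the sliding clamp of the replicative polymerases, was the highest of the 38 genes in all 8 libraries, with 316 and 354 FPKM in mESC, against 149 and 172 FPKM in MEF (1.06 ± 0.23, adjusted p = 0.0124). Rrm1 and Rrm2, the large and small subunit of ribonucleotide reductase, did not pass. Rrm1 was at 81.04 and 69.9 FPKM in mESC, against 72.3 and 84.95 FPKM in MEF (-0.06, 95% interval -0.62 to 0.51), with overlapping groups. Rrm2 was at 125 and 146 FPKM in mESC, against 115 and 125 FPKM in MEF (0.18, 95% interval -0.38 to 0.74). In KD_control Rrm2 was at 246 and 255 FPKM and passed against MEF (1.06 ± 0.09, adjusted p = 0.000291), while Rrm1 did not (-0.07). All 3 subunits of RPA, the single-strand binding trimer, were higher in mESC. Rpa2 was at 71.95 and 74.6 FPKM in mESC, against 18.3 and 17.9 FPKM in MEF (1.96 ± 0.20, adjusted p = 0.000889). Rpa1, the large subunit, was at 143 and 133 FPKM in mESC, against 52.3 and 52.8 FPKM in MEF (1.37), and Rpa3 at 69.7 and 56.7 FPKM in mESC, against 27.6 and 39.8 FPKM in MEF (0.90). The call of Rpa3 ended under 8 of 12 alternatives, each left-out library and the replicate block among them (adjusted p up to 0.261). Rpa2 was thus the lowest RPA subunit in both MEF libraries, and Rpa3 the lowest in both mESC libraries, narrowly so in mESC replicate 1. In KD_control, Rpa2 was the lowest in both libraries, as in MEF, at 76.5 and 72.6 FPKM. In Dppa5a_KD the lowest was Rpa3 in replicate 1 and Rpa2 in replicate 2.

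The sensor and kinase genes of the checkpoint were less uniform. Atr, the kinase, was at 10.6 and 9.39 FPKM in mESC, against 4.35 and 5.22 FPKM in MEF (0.93 ± 0.20, adjusted p = 0.0123). Etaa1, an activator of Atr that binds RPA, was at 27.6 and 14.3 FPKM in mESC, against 4.44 and 5.27 FPKM in MEF (1.84 ± 0.34, adjusted p = 0.00691), with the mESC libraries far apart but both above MEF. Topbp1, the other activator, did not pass at 49.7 and 38.7 FPKM in mESC, against 33.3 and 38.3 FPKM in MEF (0.29, 95% interval -0.29 to 0.87), nor did Atrip (0.51, 95% interval -0.11 to 1.13). So of these 4 genes 2 were called. Of the clamp of Rad9a, Hus1 and Rad1 that holds Topbp1 at the junction, Hus1 was at 22.5 and 15.3 FPKM in mESC, against 4.41 and 5.65 FPKM in MEF (1.71 ± 0.26, adjusted p = 0.00377), and Rad1 was also higher (1.54). Rad9a did not pass, with 16.2 and 22.4 FPKM in mESC, against 19.4 and 20.1 FPKM in MEF (-0.05, 95% interval -0.64 to 0.54), and its groups overlapped. Rad17, which loads the clamp, was at 26.3 and 16.2 FPKM in mESC, against 8.44 and 10.4 FPKM in MEF (1.06, adjusted p = 0.02599), and lost its call under 6 of 12 alternatives (adjusted p up to 0.233).

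Timeless and Tipin, which travel with the fork as a pair, were both higher in mESC. Timeless was at 22.9 and 28.6 FPKM in mESC, against 6.86 and 5.65 FPKM in MEF (1.88 ± 0.22, adjusted p = 0.00158), and Tipin at 134 and 115 FPKM in mESC, against 30.5 and 41.7 FPKM in MEF (1.77 ± 0.25, adjusted p = 0.00281). Tipin exceeded Timeless 4.04 to 7.39 times in the mESC and MEF libraries and 1.33 to 1.85 times in the KD_control and Dppa5a_KD libraries. Clspn, the mediator between Atr and Chek1, did not pass (8.93 and 11.6 FPKM in mESC, against 8.85 and 8.89 FPKM in MEF; 0.18, 95% interval -0.36 to 0.72). All 3 effectors were higher. Chek1 was at 23.7 and 15.3 FPKM in mESC, against 5.598 and 6.55 FPKM in MEF (1.51 ± 0.27, adjusted p = 0.00624). Cdc25a, the phosphatase that Chek1 marks for destruction, was higher by 1.07, and Wee1, the kinase that opposes it, by 0.92. The fork remodellers Zranb3 and Smarcal1, which rewind bared DNA, were low in all 8 libraries. Zranb3 was at 10.3 and 7.398 FPKM in mESC, against 2.07 and 2.67 FPKM in MEF (1.54), and Smarcal1 at 5.49 and 6.09 FPKM in mESC, against 2.95 and 2.88 FPKM in MEF (0.79), and both passed.

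**Figure D3:**
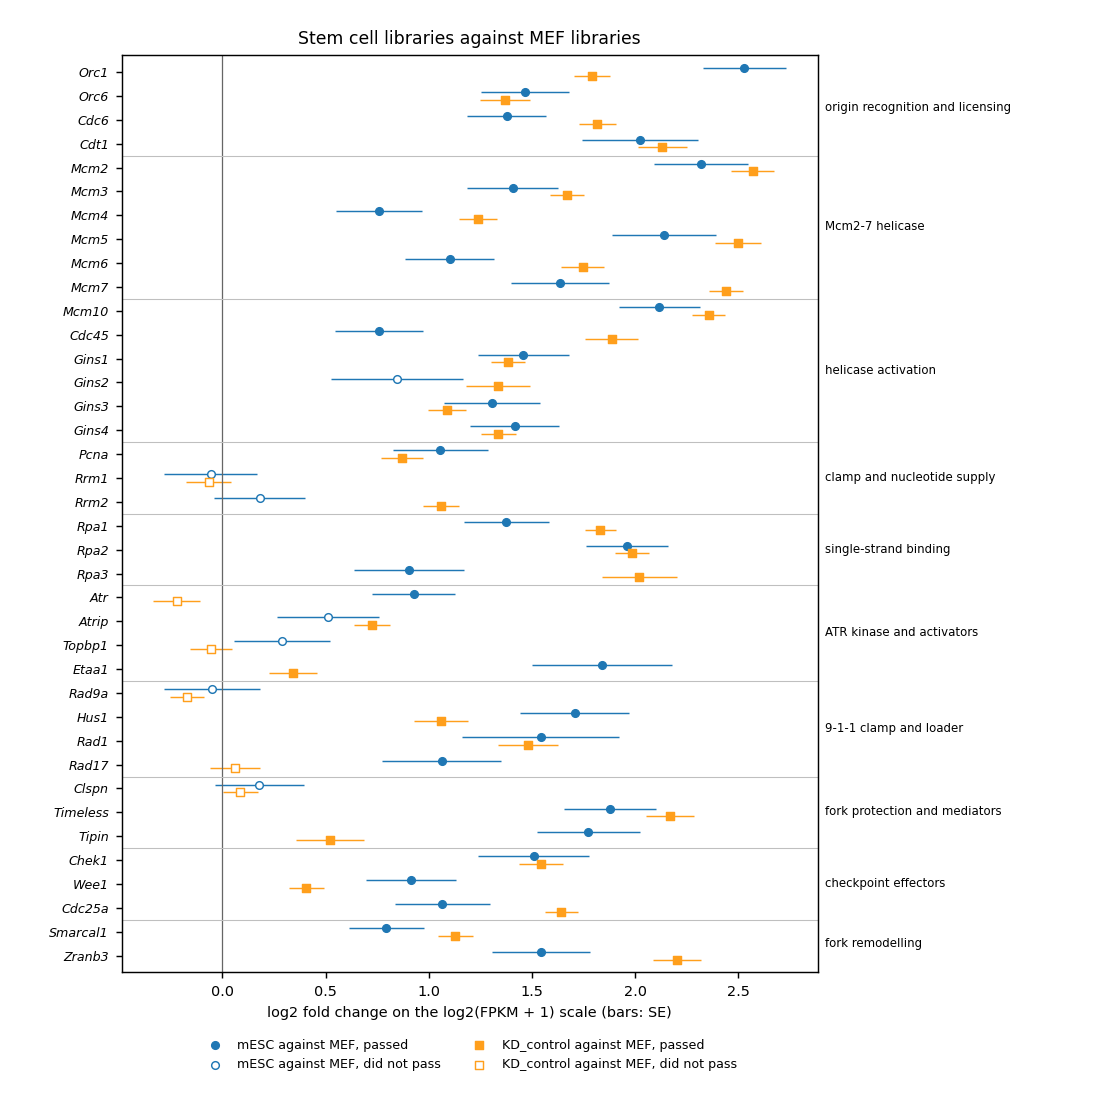
Log2 fold change of each gene in mESC against MEF (circles) and KD_control against MEF (squares) on the log2(FPKM + 1) scale, with SE as bars, filled where the adjusted p was under 0.05; both comparisons use the same 2 MEF libraries. Nearly all points lie right of 0; Atr, Rad17, Etaa1 and Tipin have circles well to the right of their squares, and Cdc45, Rrm2 and Rpa3 the reverse.

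The same cell types were also compared for genes of neighbouring functions. Of all genes tested in mESC against MEF, 30.6% were called higher and 26.1% lower. Of 15 other licensing and firing genes, 12 rose in mESC relative to MEF and 0 fell, with a median of 1.09, among them Ticrr (2.34), which prepares helicase activation, Gmnn (1.82), the inhibitor of Cdt1, and Orc5 (1.89). Of 20 genes of the replicative polymerases and the clamp loader, 14 were higher and 1 lower, with Rfc5 of the clamp loader at 2.32 and Pold4, a small subunit of polymerase delta, at -2.38. Of 12 genes of the Atm branch 6 were higher and 0 lower, Brca1 (1.87) and Chek2 (1.91) among them. Of 14 genes of nucleotide synthesis 7 were higher and 0 lower, and of 13 genes of the E2F and Rb family 5 were higher and 0 lower, with E2f2, an activating E2F, at 2.42. Medians of these last lists were 0.64, 0.75 and 0.12, where that of all genes was 0.15. In KD_control against the same MEF libraries, where 48.4% of all genes were called higher and 32.5% lower, 10 of the 15 licensing and firing genes were higher and 1 lower, 16 and 1 of the 20 polymerase and clamp loader genes, 7 and 2 of the 12 of the Atm branch, 8 and 2 of the 14 of nucleotide synthesis, and 6 and 5 of the 13 of the E2F and Rb family.

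Both stem cell groups without a knockdown, KD_control and mESC, are labelled as wild type and untreated, and still differed in 10 of the 38 genes, 5 higher and 5 lower in KD_control, with a median of 0.07. Of all 12595 genes tested, 41.4% were called, 26.5% higher and 15.0% lower, with a median of 0.19, and the 26.3% of the 38 lay below that background. The groups did not overlap for 17 of the 38 with KD_control higher and 10 with it lower, against 47.9% and 32.0% of all genes. The share of positive log2 fold changes among the 38 was 55.3%, and 44.7% with median-ratio scaling. The labels give no culture date or batch, so culture and library preparation cannot be told apart from the group. Of 6 stem cell markers 2 were higher in KD_control and 1 lower: Tdgf1 was at 1273 and 1267 FPKM in KD_control, against 312 and 418 FPKM in mESC, and Zfp42 at 34.3 and 36.6 FPKM in KD_control, against 406 and 502 FPKM in mESC. Of 8 fibroblast markers 5 were tested, with 2 higher and 1 lower. The part of these markers in the result was not tested. Higher in KD_control were Cdc45, Rpa3, Rrm2, Mcm7 and Mcm6. Cdc45 was at 60.5 and 58.3 FPKM in KD_control, against 27.2 and 26.2 FPKM in mESC (1.12 ± 0.13, adjusted p = 0.00955). Rpa3 was at 138 and 137 FPKM in KD_control, against 69.7 and 56.7 FPKM in mESC (1.12 ± 0.17, adjusted p = 0.0138). The libraries of the 2 groups were well apart for both. Rrm2, Mcm7 and Mcm6 were at 0.88, 0.81 and 0.64.

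Lower in KD_control were Etaa1, Tipin, Atr, Rad17 and Orc1. Tipin was at 51.4 and 51.9 FPKM in KD_control, against 134 and 115 FPKM in mESC (-1.25 ± 0.15, adjusted p = 0.00977). Atr was at 3.79 and 4.12 FPKM in KD_control, against 10.6 and 9.39 FPKM in mESC (-1.15 ± 0.15, adjusted p = 0.0108), and KD_control did not pass against MEF (-0.22, adjusted p = 0.1304). Its KD_control libraries lay below both MEF libraries too. Etaa1, Rad17 and Orc1 were at -1.50, -1.002 and -0.74. The 10 calls were lost with either KD_control library left out, and calls among all genes fell too. With either mESC library left out, calls became more frequent among the 38 and among all genes. The median of the 38 was then 0.12 without mESC replicate 1 and 0.10 without mESC replicate 2, against 0.11 and 0.28 of all genes.

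After Dppa5a knockdown the 38 genes stayed close to KD_control: 1 was called higher and 1 lower, and the median log2 fold change was -0.01. Of 12345 genes tested, 37.4% were called, 13.6% higher and 23.8% lower, and the median of all genes was -0.11. The 95% interval lay within 2-fold in either direction for 34 of the 38 genes, all but Rpa3, Gins2, Orc6 and Cdc45. The groups did not overlap for 12 genes with Dppa5a_KD higher and 12 with it lower, against 30.8% and 44.8% of all genes. An unadjusted limma p under 0.05 was found for 8 of the 38, and for 6131 of all 12345 genes. With either knockdown library left out, calls became more frequent among the 38 and among all genes. The median of the 38 was then 0.01 without Dppa5a_KD replicate 1 and -0.02 without Dppa5a_KD replicate 2, against -0.08 and -0.14 of all genes. With either control library left out, calls became fewer among the 38 and among all genes. Of 8 fibroblast markers 5 were tested, with 1 higher and 2 lower, and their sums were 406.3 and 426.4 FPKM in Dppa5a_KD, against 427.3 and 430.6 FPKM in KD_control. Vim was at 109 and 112 FPKM in Dppa5a_KD, against 73.1 and 72.7 FPKM in KD_control, and Pdgfrb at 2.81 and 2.32 FPKM in Dppa5a_KD, against 7.89 and 7.61 FPKM in KD_control; their part in the result was not tested. Median-ratio scaling moved the median of all genes to 0.05 and the share of positive log2 fold changes among the 38 genes to 73.7%, where it was 47.4% as deposited, so the direction of small differences depends on the scaling.

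Cdc45 (chr16:18780447-18811972, mm10) was at 33.9 and 44.1 FPKM in Dppa5a_KD, against 60.5 and 58.3 FPKM in KD_control (-0.61 ± 0.15, adjusted p = 0.0374). Both knockdown libraries lay below both control libraries, and both lay above the 27.2 and 26.2 FPKM of mESC. Etaa1 (chr11:17938749-17953875, mm10) was at 11.3 and 9.68 FPKM in Dppa5a_KD, against 6.07 and 6.76 FPKM in KD_control (0.63 ± 0.13, adjusted p = 0.0206). It too did not overlap, and both knockdown libraries lay below the 27.6 and 14.3 FPKM of mESC. With either KD_control library left out, or with FPKM scaled to a common sum, neither gene was called. Cdc45 also lost its call with median-ratio scaling and with no filter on low values, and Etaa1 with all 8 libraries in 1 fit. Across the alternatives run the adjusted p reached 0.220 for Cdc45 and 0.203 for Etaa1. In the RefSeq table Ufd1 and Gm52240 overlap Cdc45.

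Among the genes that did not pass, several had knockdown libraries that differed from each other. Rpa3 was at 47.4 and 98.1 FPKM in Dppa5a_KD, against 138 and 137 FPKM in KD_control (-1.0 ± 0.35, adjusted p = 0.08297). Orc6 was at 38.3 and 54.03 FPKM in Dppa5a_KD, against 75.2 and 69.2 FPKM in KD_control (-0.65 ± 0.19, adjusted p = 0.0522). Rad9a was at 10.3 and 13.99 FPKM in Dppa5a_KD, against 17.6 and 17.4 FPKM in KD_control (-0.50 ± 0.16, adjusted p = 0.0665). The groups did not overlap for any of these. Calls came under some alternatives: for Rpa3 under 6 of 11, each left-out library, the common sum and the replicate block among them, for Orc6 under 4 and for Rad9a under 3. The 2 genes called lower with the common sum were Rpa3 and Orc6. The helicase ring was near the control: its 6 log2 fold changes ran from -0.25 (Mcm4) to 0.21 (Mcm5), and Mcm2 was at 197 and 205 FPKM in Dppa5a_KD, against 207 and 211 FPKM in KD_control. Mcm10 was at 63.98 and 57.5 FPKM in Dppa5a_KD, against 47.8 and 48.8 FPKM in KD_control (0.32, adjusted p = 0.0788). Chek1 was at 15.97 and 16.4 FPKM in Dppa5a_KD, against 19.9 and 19.2 FPKM in KD_control (-0.26, adjusted p = 0.0933). Neither of these passed, although their groups did not overlap. Atr was at 6.79 and 4.44 FPKM in Dppa5a_KD, against 3.79 and 4.12 FPKM in KD_control (0.40, 95% interval -0.12 to 0.91), and Pcna at 286 and 375 FPKM, against 292 and 296 FPKM in KD_control (0.16, 95% interval -0.35 to 0.66).

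**Figure D4:**
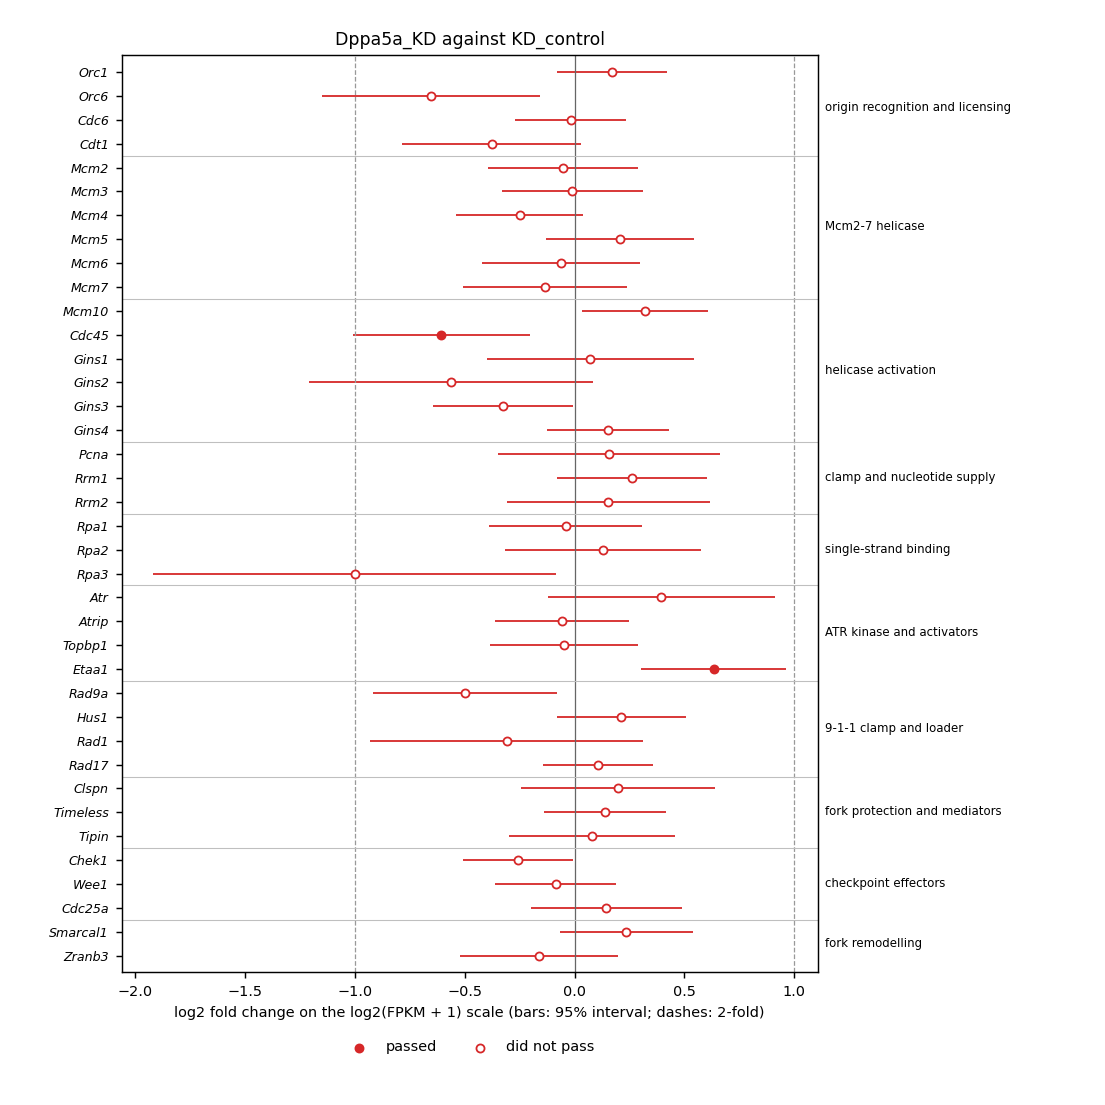
Log2 fold change of each gene in Dppa5a_KD against KD_control on the log2(FPKM + 1) scale, with the 95% interval of the limma fit as bars and 2-fold in either direction as dashes. Filled points, Cdc45 to the left and Etaa1 to the right of 0, had an adjusted p under 0.05; 34 of the 38 intervals stay between the dashes.

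Of the neighbouring functions, the E2F and Rb family had 2 higher and 5 lower of 13 genes tested after knockdown, where 13.6% of all genes were called higher and 23.8% lower. The 4 other lists had smaller shares called than all genes. E2f2 was at 17.8 and 14.9 FPKM in Dppa5a_KD, against 6.197 and 6.87 FPKM in KD_control (1.20 ± 0.13, adjusted p = 0.00679). E2f3 was also higher (0.90), and among the lower ones was Rbl2, a relative of the retinoblastoma protein (-0.77). Of 15 licensing and firing genes 1 was higher, Recql4 (0.63), and 1 lower, Cdc7, the kinase that fires licensed origins, at 10.4 and 11.2 FPKM in Dppa5a_KD, against 21.3 and 20.97 FPKM in KD_control (-0.91 ± 0.10, adjusted p = 0.00674). Of 20 polymerase and clamp loader genes 2 were higher, Fen1 (0.74) and Rfc5 (0.62), and 1 lower, Pold4 (-1.41). Of 12 genes of the Atm branch 1 was higher, Trp53 (0.72), and 1 lower, Mdc1 (-0.93), and of 14 of nucleotide synthesis 1 was higher and 2 lower. None of the 10 markers of G2 and mitosis was called by limma.

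In the RIP libraries none of the 38 transcripts was called higher with the Flag antibody than with IgG. Against IgG_RIP, 1 was called lower in Flag_RIP, where 2.32% of 10473 genes were called, 1.16% higher and 1.16% lower (edgeR quasi-likelihood test, Benjamini-Hochberg adjusted p under 0.05), and 1 was called lower in HU_Flag_RIP, where 2.86% were called, 1.44% higher and 1.42% lower. Without overlap, 3 of the 38 were higher and 9 lower in Flag_RIP, against 23.8% and 22.9% of all genes, and 7 were higher and 8 lower in HU_Flag_RIP, against 23.9% and 23.5%. The median log2 fold change of the 38 was -0.10 in Flag_RIP (all genes 0.02) and 0.05 in HU_Flag_RIP (all genes 0.04). Its sign did not hold: in Flag_RIP it was -0.15 without IgG_RIP replicate 1, 0.07 without IgG_RIP replicate 2, -0.24 without Flag_RIP replicate 1 and -0.21 without Flag_RIP replicate 2. In HU_Flag_RIP it was -0.09 without IgG_RIP replicate 1, 0.19 without IgG_RIP replicate 2, -0.05 without HU_Flag_RIP replicate 1 and 0.06 without HU_Flag_RIP replicate 2. With library size alone as scaling, the median of all genes was -0.87 in Flag_RIP and -0.88 in HU_Flag_RIP. Of the 38, 13 were then called lower in Flag_RIP, where 2214 of 10473 genes were. In HU_Flag_RIP 12 were called lower, where 2617 of 10473 genes were. The share of the 38 with a positive log2 fold change was then 0% in Flag_RIP (42.1% with TMM) and 13.2% in HU_Flag_RIP (52.6% with TMM). Both comparisons use the same 2 IgG libraries. An unadjusted edgeR p under 0.05 was found for 3 of the 38 in Flag_RIP and 6 in HU_Flag_RIP. Of all 10473 genes it was found for 1607 and 1788. Intervals were wide, with a median half-width of 0.90 on the log2 scale in both comparisons, and 4 of the 38 in Flag_RIP and 8 in HU_Flag_RIP stayed within 2-fold. Dppa5a RNA itself was at 170 and 160 CPM (counts scaled to library size with TMM) in Flag_RIP, against 232 and 252 CPM in IgG_RIP (-0.55, adjusted p = 0.254). In HU_Flag_RIP it was at 114 and 114 CPM (-1.08 against IgG_RIP, adjusted p = 0.0168), so the Dppa5a transcript was not more abundant with Flag than with IgG.

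Rpa1 (chr11:75300259-75348383, mm10) had 331 and 355 counts in HU_Flag_RIP, 391 and 358 in Flag_RIP and 387 and 670 in IgG_RIP. Scaled, it was at 43.98 and 58.3 CPM in HU_Flag_RIP, 38.02 and 44.7 CPM in Flag_RIP and 77.05 and 113 CPM in IgG_RIP, so that both IgG libraries lay above all 4 Flag libraries. It was called lower in Flag_RIP (-1.20 ± 0.30, adjusted p = 0.0384) and did not pass in HU_Flag_RIP (-0.90 ± 0.30, adjusted p = 0.111). Mcm7 (chr5:138164589-138171862, mm10) had 281 and 274 counts in HU_Flag_RIP, 436 and 343 in Flag_RIP and 484 and 452 in IgG_RIP. Scaled, it was at 37.3 and 44.99 CPM in HU_Flag_RIP, 42.4 and 42.9 CPM in Flag_RIP and 96.4 and 76.5 CPM in IgG_RIP, again with IgG above all Flag libraries. It was called lower in HU_Flag_RIP (-1.07 ± 0.29, adjusted p = 0.0484) and did not pass in Flag_RIP (-1.02 ± 0.29, adjusted p = 0.0684). Neither call held with a library of its own 2 groups left out. The counts of 4 macrophage markers also ran lower with Flag, summing to 6 and 22 in HU_Flag_RIP, 12 and 11 in Flag_RIP and 59 and 36 in IgG_RIP, with Ptprc at 0 in both Flag_RIP libraries and Adgre1 at 0 in all but 1 of the 6 libraries. None of the 3 tested was called, and their part in the result was not tested. The hairpins of Mir25, Mir93 and Mir106b lie within the span of Mcm7, as does part of Ap4m1, and Smyd4 overlaps Rpa1; the hairpins had 0 or 1 count in each library.

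None of the other abundant members passed. Mcm5 was at 62.6 and 30.7 CPM in HU_Flag_RIP, 59.4 and 34.2 in Flag_RIP and 31.1 and 19.98 in IgG_RIP (0.88 in Flag_RIP against IgG_RIP, adjusted p = 0.256). Topbp1 was at 48.1 and 31.04 CPM in HU_Flag_RIP, 44.05 and 37.99 in Flag_RIP and 62.3 and 58.9 in IgG_RIP, lower in all 4 Flag libraries without passing (adjusted p = 0.4002 in Flag_RIP and 0.312 in HU_Flag_RIP). Pcna was at 59.6 and 36.6 CPM in HU_Flag_RIP, 44.6 and 28.9 in Flag_RIP and 24.1 and 30.98 in IgG_RIP (0.81 in HU_Flag_RIP against IgG_RIP, adjusted p = 0.215). Both HU_Flag_RIP libraries lay above both IgG_RIP libraries, and the Flag_RIP libraries reached from within the IgG_RIP range to above it. Mcm2 and Mcm6 overlapped across all 3 groups, with Mcm2 at 35.2 and 24.6 CPM in HU_Flag_RIP, 48.2 and 24.4 in Flag_RIP and 35.2 and 34.9 in IgG_RIP. Genes with few counts varied more: Atrip, with 7 and 25 counts in HU_Flag_RIP, 25 and 21 in Flag_RIP and 12 and 16 in IgG_RIP, allowed no statement on its recovery at this depth.

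**Figure D5:**
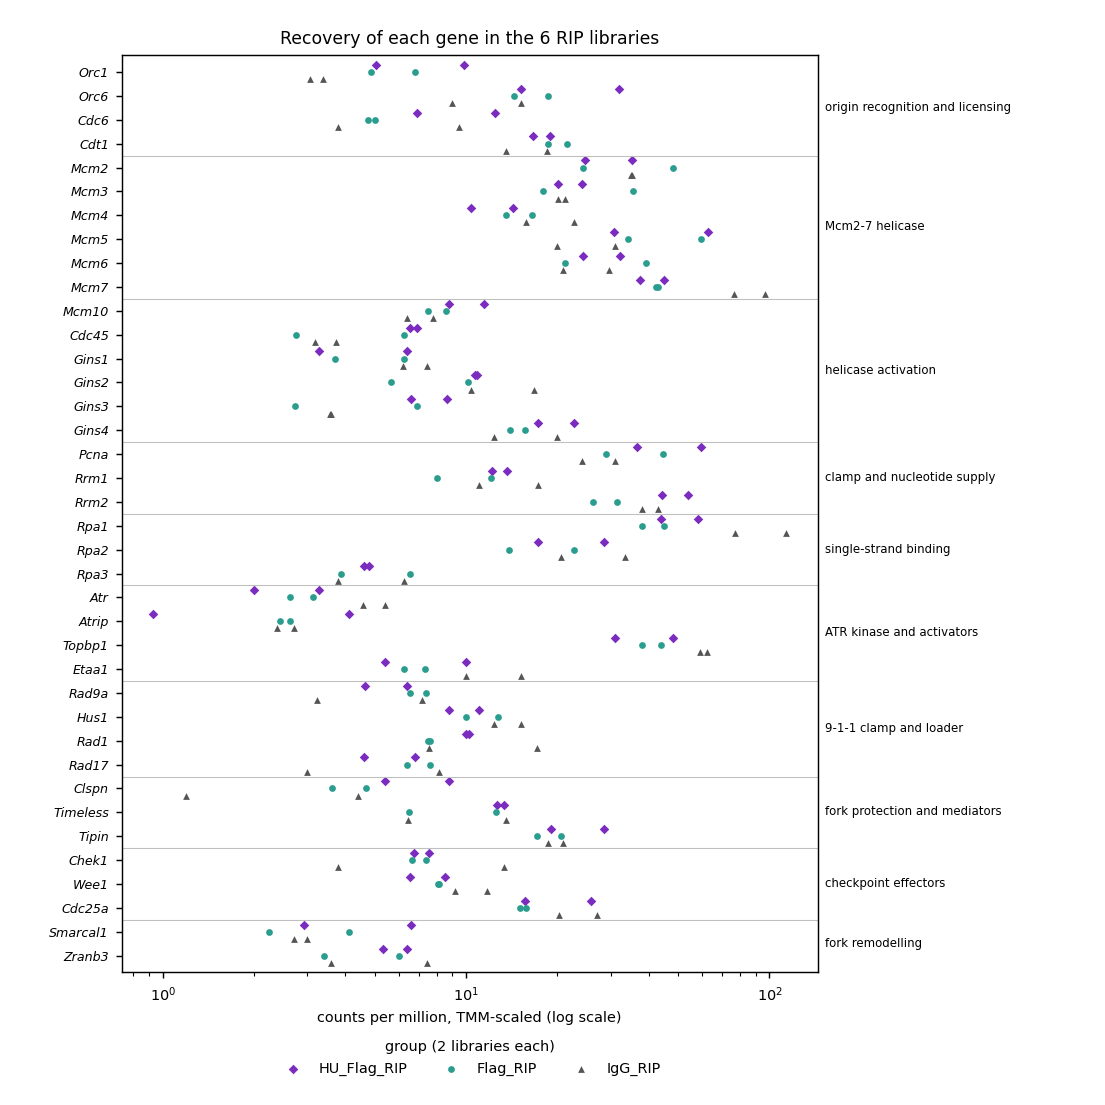
Recovery of each of the 38 transcripts in the 6 RIP libraries (x axis, CPM, counts scaled to library size with TMM, log scale), with 1 point per library. IgG triangles stand to the right of all Flag points for Mcm7, Rpa1, Topbp1, Etaa1, Atr and Wee1, of which the last 4 passed in neither comparison; most other genes show the groups close together or overlapping.

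Between HU_Flag_RIP and Flag_RIP none of the 38 was called, by edgeR or by DESeq2, where edgeR called 0.611% of 10473 genes, 0.143% higher and 0.468% lower. The lowest p was that of Rrm2 (edgeR adjusted p = 0.938). It was the only 1 of the 38 under 0.05 before adjustment, where 415 of 10473 genes were. Rrm2 was at 54.1 and 44.3 CPM in HU_Flag_RIP, against 26.2 and 31.4 CPM in Flag_RIP (0.77 ± 0.30), and at 42.8 and 38.1 CPM in IgG_RIP. Its HU libraries lay above the untreated Flag libraries and above the IgG ones. Groups did not overlap for 10 of the 38 with HU_Flag_RIP higher and for 1 with it lower, against 15.5% and 15.1% of all genes. The median log2 fold change of the 38 was 0.31 and that of all genes was near 0. For the 38 it was 0.04 without HU_Flag_RIP replicate 1 and 0.20 without HU_Flag_RIP replicate 2. It was 0.29 without Flag_RIP replicate 1 and 0.09 without Flag_RIP replicate 2. The 10 markers of G2 and mitosis had a median of -0.997 in this comparison, with none called; their part in the result was not tested. Of the neighbouring functions, Dbf4, the partner of Cdc7, was lower in HU_Flag_RIP than in IgG_RIP (316 and 119 counts in HU_Flag_RIP, against 449 and 787 in IgG_RIP; -1.85 ± 0.35, edgeR adjusted p = 0.00538). H2afx, the histone marked at breaks and stalled forks, was lower in HU_Flag_RIP than in Flag_RIP (293 and 139 counts in HU_Flag_RIP, against 1647 and 476 in Flag_RIP; -1.83 ± 0.39, edgeR adjusted p = 0.0268), with the 2 Flag_RIP libraries far apart.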

How the data were processed

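Per the file headers, the authors deposited FPKM with confidence bounds for the RNA-seq libraries, and the RIP tables hold whole-number counts per gene symbol, deposited without scaling. Per the submitters' processing notes, mm10, HTSeq 0.6.1, TopHat2 2.0.8, CASAVA 2.19, Cuffdiff 2.1.1 and Cufflinks 2.1.1 were used, without stated roles. Whether counting used strand is not stated; 16 of the 38 genes are overlapped by another gene of the RefSeq table, and reads of such pairs cannot be told apart. FPKM were summed over the loci of a symbol, 1 gene marked as failed was left out, and 27 count rows that read as dates (0.0206% to 0.0489% of counts) stayed out. FPKM were tested with limma 3.58.1 (limma-trend, log2(FPKM + 1), genes averaging 1 FPKM or more in either group, only the groups compared), counts with edgeR 4.0.16 (quasi-likelihood, TMM, filterByExpr, all 6 RIP libraries) in R 4.3.3, with DESeq2 1.42.0 as alternative. Calls needed a Benjamini-Hochberg adjusted p under 0.05 over all genes tested. Fits were tested on simulated data with the spread of these libraries, which cannot show whether that spread is technical. The changes set in the simulated RIP counts were larger than those of the 38 genes. Named genes were the called genes of each role (up to 4 by p) or, without a call, up to 2, the abundant genes in RIP, and up to 3 called genes per other list; further members are named to account for all. The members and lists were chosen with earlier results of these data known.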

Additional observations from a re-analysis of the deposited data

Results flagged for a closer look

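In 10 of the 38 genes the difference from MEF was not the same in the 2 sets of wild type stem cell libraries, by the limma test of KD_control against mESC itself. That is 26.3% of them, where 41.4% of all genes were called, and none of the 10 was called under every alternative, or with either KD_control library left out. The log2 fold changes of KD_control against mESC were 1.12 for Cdc45, 1.12 for Rpa3, 0.88 for Rrm2, 0.81 for Mcm7 and 0.64 for Mcm6. They were -0.74 for Orc1, -1.002 for Rad17, -1.15 for Atr, -1.25 for Tipin and -1.50 for Etaa1. Atr was the one whose 2 differences from MEF had opposite signs, 0.93 in mESC, called, and -0.22 in KD_control, not called.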

How the results depend on the processing

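Each comparison was rerun with other scalings, pseudocounts, filters, sets of libraries, a replicate block and each library left out. For mESC against MEF, 31 genes were higher; leaving out 1 library gave 6 to 30, 6 without either MEF library, and the replicate block gave 25. The crossed replicate block, chosen after seeing the data because the replicate deviations of mESC and MEF correlated at -0.55 across genes, gave 32. For KD_control against MEF, the 0 lower genes became 2 with scaling to a common sum and 4 with median-ratio scaling, and 0 to 4 with 1 library left out; the 27 to 33 higher ones stayed near 32. For KD_control against mESC, 10 higher were called with all 8 RNA-seq libraries in 1 fit and 3 lower with no filter on low values, against 5 and 5; leaving out 1 library gave 0 to 18 higher and 0 to 15 lower. For Dppa5a_KD against KD_control, 0 higher and 2 lower were called with the common sum, 2 and 0 with median-ratio scaling, 1 and 0 with no filter, 0 and 1 with all 8 libraries, and 1 and 5 with the replicate block, against 1 and 1; leaving out 1 library gave 0 to 11 higher and 1 to 13 lower. For Flag_RIP against IgG_RIP, 1 lower gene became 13 with library size alone, where 2214 of 10473 genes were called lower. It became 2 with DESeq2, with only the 4 libraries compared and with the replicate block. The main call was lost with a library of these 2 groups left out. For HU_Flag_RIP against IgG_RIP, 1 lower gene became 12 with library size alone, where 2617 of 10473 genes were called lower. It became 0 with only the 4 libraries compared and 2 with the replicate block. The main call was lost with a library of these 2 groups left out. HU_Flag_RIP against Flag_RIP had 0 calls under every alternative run. Uncalled genes often changed sign under an alternative, 11 in KD_control against mESC, 17 in the knockdown and 24 in each comparison with IgG_RIP. Those called in opposite directions with 1 or the other library left out were 4: in KD_control against mESC, without mESC replicates 1 and 2 in turn, Cdt1 at -0.19 and 0.40, Rad1 at 0.45 and -0.57 and Chek1 at 0.34 and -0.27; in Dppa5a_KD against KD_control, without Dppa5a_KD replicates 1 and 2 in turn, Gins1 at 0.31 and -0.17. A library left out leaves 1 in its group, assumed to vary like the other. Same-numbered libraries share only a number; correlations of the replicate deviations in the other comparisons were between -0.09 and 0.46, 0.46 being HU_Flag_RIP against Flag_RIP.

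Calls rest on 2 libraries a group. Where a call was lost, the cause was not tested. Counting error is small in the RNA-seq libraries; in the RIP libraries the 38 genes had 6 to 670 counts each, and their 95% intervals had a median half-width of 0.90 on the log2 scale.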
